A study of Bos grunniens with 18 samples.

Results

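The genes described here are *BCL6* and the regulators that work with it or against it: *BCOR*, *PRDM1*, *IRF4* and *IRF8*. They were taken by gene name from the deposited expression table of yak blood, in which 4 of the 5 names have a row among 20607 genes. *BCOR* had no row under that name, and its level was not analysed here. The genes were chosen with stage values of these libraries known, because *BCL6* stood out between pregnancy and estrus, so their differences between stages are given below as a description without p-values. Whether such a gene is among those past the thresholds is part of this description and no test of it.

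Whole blood of adult female yaks (*Bos grunniens*) aged 4 to 8 years was sequenced in 3 reproductive stages with 6 libraries each: Y-A is anestrus, Y-E is estrus, and pregnant animals form Y-P. The study selected 6 cows from an inseminated herd and brought the animals into estrus with a progesterone pessary, PGF2α and GnRH followed by timed insemination, so the Y-E and Y-P stages followed a hormone programme. Blood was not sorted, and each library therefore mixes the RNA of red cells, platelets and all white blood cells. In such samples, fewer cells of a type and less RNA per cell cannot be told apart.

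BCL6 is a transcriptional repressor with a BTB domain and zinc fingers. It recruits corepressors, among them BCOR and NCOR1, which bring histone deacetylases or a Polycomb complex to its target genes. In B cells BCL6 holds the germinal centre state and represses *PRDM1*, whose product Blimp-1 in turn represses *BCL6* and drives antibody-secreting cells. IRF4 acts in activated lymphocytes and raises *PRDM1*, whereas IRF8 is needed for monocytes and dendritic cells and also acts in B cells. BCL6 is made outside lymphocytes too, including in myeloid cells.

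The libraries held 30247267 to 48401076 counts. The deposited counts were scaled to a common library size (CPM) by the TMM method of edgeR and tested for each of the 3 pairs of stages. A gene was said to have passed at an adjusted p under 0.05, and to be called when its log2 fold change was also at least 1 in size. Y-E replicate 6 stood apart from its stage: 6 hemoglobin complex genes took 8.36% of its counts, compared with 0.0899% to 0.713% in the other Y-E libraries and 3.1% to 16.7% in Y-A. Values without this library are given beside the results that it touches.

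The table places *BCL6* (ENSBGRG00000001201) on chromosome 1, from 86527161 to 86553304 on the plus strand. A gene on the minus strand, ENSBGRG00000001245, overlaps it, and how the counting treated strand is not given in the sources used here. *PRDM1* (ENSBGRG00000005178) spans 46943005 to 47054994 of chromosome 10, also on the plus strand. Both IRF genes are on minus strands, *IRF4* (ENSBGRG00000012510) at 57435854 to 57454411 of chromosome 24 and *IRF8* (ENSBGRG00000013321) at 37396602 to 37421025 of chromosome 20. Each was listed with 3 transcripts. These positions follow the Ensembl annotation of the deposited table, for which the study names its *Bos grunniens* reference as genome version v101.

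The annotation of the table linked all 4 genes to sequence-specific binding of double-stranded DNA, a term held by 242 tested genes. *BCL6*, *PRDM1* and *IRF8* shared the term for a DNA-binding transcription repressor at RNA polymerase II promoters, held by 123 tested genes. *IRF4* and *IRF8* shared the defense response to protozoan, held by 9.

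All 4 genes were well covered in every library. *BCL6* had 5941 to 22019 counts in a library, *IRF8* had 1410 to 4303, *PRDM1* had 2082 to 4233 and *IRF4* had 1023 to 2153. In FPKM, which corrects for gene length, *BCL6* lay at percentiles 90.6 to 98.1 of all genes of its library. The percentiles were 81.2 to 90.9 for *IRF8*, 75.5 to 85.6 for *PRDM1* and 66.6 to 76.0 for *IRF4*.

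The order of FPKM was *BCL6*, *IRF8*, *PRDM1*, *IRF4* in 16 of 18 libraries. In the other 2, Y-E replicate 2 and Y-E replicate 5, *PRDM1* stood above *IRF8*. The ranges of *IRF8* and *PRDM1* were apart in Y-A and in Y-P but overlapped in Y-E. *PRDM1* and *IRF4* were apart in Y-A and, narrowly, in Y-E, where the lowest *PRDM1* value was 14.5 FPKM and the highest *IRF4* value 14.2 FPKM, and they overlapped in Y-P.

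*BCL6* was highest in estrus and lowest in pregnancy. Its lowest, median and highest levels were 75.7, 88.1 and 132 FPKM in Y-A, 95.1, 163 and 187 FPKM in Y-E, and 42.1, 62.8 and 84.5 FPKM in Y-P. Every Y-E library lay above every Y-P library, and the lowest Y-E value belonged to Y-E replicate 6. The next lowest Y-E library had 123 FPKM, and the highest Y-A library, Y-A replicate 5, lay above it.

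**Figure D1:**
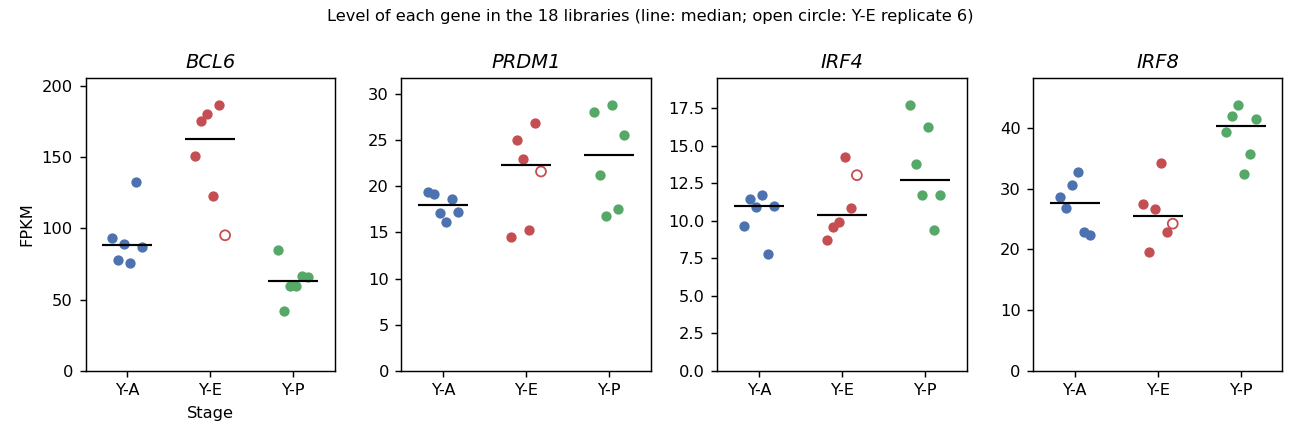
FPKM of *BCL6*, *PRDM1*, *IRF4* and *IRF8* (vertical axis, a separate scale for each gene) in the 6 libraries of each stage (horizontal axis); each point is a library, the line is the median and the open circle is Y-E replicate 6. The *BCL6* points of Y-E all lie above those of Y-P, the *IRF8* points of Y-P lie mostly above the other stages, and the *PRDM1* and *IRF4* points of the stages overlap.

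In the Y-P vs. Y-E comparison the log2 fold change of *BCL6* was -1.48 ± 0.20 (SE, 6 libraries per stage), a level 2.79-fold lower in pregnancy. It was the only one of the 4 genes to be called, in a comparison where 2.67% of 14508 tested genes were called. Since this contrast chose the gene, nothing is read from that count. With each of the 18 libraries left out in turn, the log2 fold change ran from -1.59 to -1.40, and without Y-E replicate 6 it was -1.59.

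The Y-P vs. Y-A difference of *BCL6* was smaller, at -0.78 ± 0.19 on the log2 scale. The gene was among those that passed without reaching the fold needed for a call, in a comparison where 3.61% of tested genes passed as lower, 2.22% passed as higher and 1.43% were called. The Y-P and Y-A libraries did not overlap in CPM, whereas in FPKM the Y-P library was above the Y-A library in 2 of 36 pairs. The gene no longer passed when Y-A replicate 5, Y-P replicate 2 or Y-P replicate 4 was left out.

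In the Y-E vs. Y-A comparison *BCL6* differed by 0.70 ± 0.19 and did not pass. The Y-E library was above the Y-A library in 33 of 36 pairs in CPM, and without Y-E replicate 6 the log2 fold change was 0.82, still without passing. The edgeR test found little in this comparison as a whole: 0.0% of tested genes passed as higher, 0.0207% passed as lower and 0.0138% were called, although 900 genes had an unadjusted p under 0.05 and DESeq2 called 12 genes. Adding the replicate number to the edgeR fit as a block gave 11 calls in place of 2. None of the 4 genes passed here, and DESeq2 and limma passed none of them either. *BCL6* passed in the blocked fit without Y-E replicate 6. The 3 comparisons share their libraries in pairs and are not independent of each other.

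*PRDM1*, the repressor that opposes *BCL6*, gave no difference that passed. Its lowest, median and highest levels were 16.1, 17.96 and 19.4 FPKM in Y-A, 14.5, 22.3 and 26.9 FPKM in Y-E, and 16.8, 23.4 and 28.8 FPKM in Y-P. The 3 ranges overlapped, and the libraries of Y-E and Y-P were spread more widely than those of Y-A. The log2 fold changes, each with an SE of 0.16, were 0.22 between Y-E and Y-A, 0.13 between Y-P and Y-A, and -0.09 between Y-P and Y-E, none of which passed. The last of these had the other sign when libraries were scaled by their totals alone or when FPKM was used.

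*IRF4*, the lymphocyte factor that raises *PRDM1*, also overlapped between all stages. Its lowest, median and highest levels were 7.77, 11.0 and 11.7 FPKM in Y-A, 8.75, 10.4 and 14.2 FPKM in Y-E, and 9.38, 12.8 and 17.7 FPKM in Y-P. The log2 fold changes of 0.07, 0.16 and 0.09, each with an SE of 0.14, followed the same order of comparisons and did not pass.

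*IRF8*, the factor of monocytes and dendritic cells, was highest in pregnancy. Its lowest, median and highest levels were 22.4, 27.7 and 32.8 FPKM in Y-A, 19.7, 25.5 and 34.2 FPKM in Y-E, and 32.4, 40.4 and 43.8 FPKM in Y-P. In Y-E the highest value, of Y-E replicate 4, reached into the Y-P range, and the Y-P library was above the Y-E library in 35 of 36 pairs in FPKM and 32 of 36 in CPM.

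The Y-P vs. Y-E log2 fold change of *IRF8* was 0.42 ± 0.13 in the counts, where it passed, in a comparison in which 5.77% of tested genes passed as higher and 8.68% as lower. It ceased to pass in 9 of 18 fits with a library removed, namely those lacking Y-A replicate 1, replicate 1, 2, 3, 5 or 6 of Y-E, or replicate 2, 3 or 6 of Y-P. Without Y-E replicate 6 the value was 0.40. The Y-P vs. Y-A value was 0.32 ± 0.13, which did not pass by edgeR with TMM or by DESeq2 but passed with library totals and in both limma fits, at 0.48 to 0.52, and that of Y-E vs. Y-A was -0.10 ± 0.13. The units gave different sizes for this gene: the median of Y-P was 1.59 times that of Y-E in FPKM and 1.32 times in CPM. For *BCL6* the median of Y-E was 2.6 times that of Y-P in FPKM and 2.92 times in CPM.

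**Figure D2:**
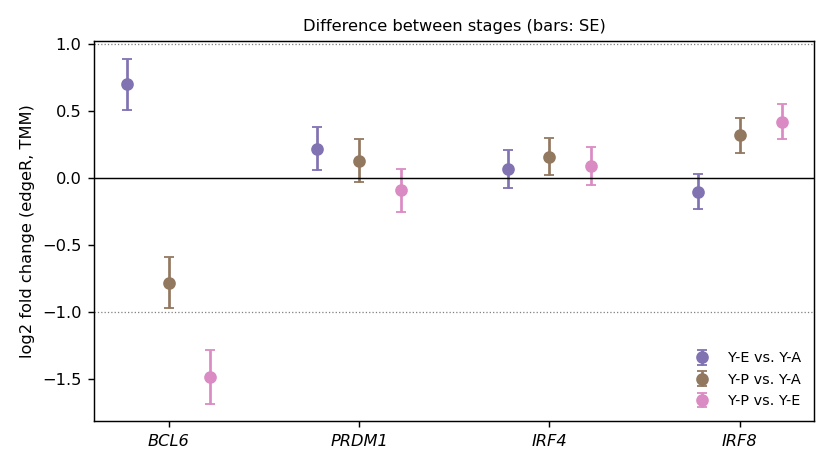
log2 fold change of each gene (vertical axis, from edgeR) in the 3 comparisons of stages, with bars of 1 SE and dotted lines at a log2 fold change of 1 in either direction. *BCL6* lies at -1.48 in Y-P vs. Y-E, past the dotted line, and the values of *PRDM1*, *IRF4* and *IRF8* lie between -0.10 and 0.42.

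The ratio of *BCL6* to the other genes within a library sets aside the scaling between libraries. The FPKM of *BCL6* over that of *PRDM1* had a median of 4.93 in Y-A (4.04 to 7.09), 7.44 in Y-E (4.40 to 10.4) and 2.79 in Y-P (1.99 to 3.78). All Y-P libraries lay below all others, and the lowest Y-E value was that of Y-E replicate 6.

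*BCL6* over *IRF8* had medians of 3.09, 6.12 and 1.72 in the same order of stages, and the Y-P range of 1.003 to 2.15 lay below the other stages. *BCL6* over *IRF4* had medians of 8.03, 17.2 and 4.92. Here the highest Y-P library, at 7.07, reached above the lowest of Y-A, at 6.45, and Y-A replicate 5 had a ratio of 17.03, close to the Y-E median.

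**Figure D3:**
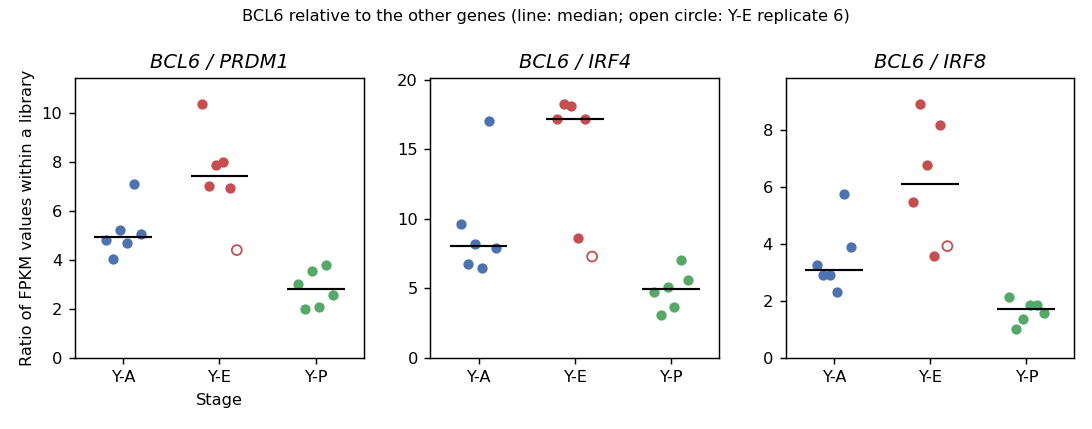
Ratio of *BCL6* FPKM to the FPKM of *PRDM1*, *IRF4* and *IRF8* within each library (vertical axis, a separate scale for each ratio) by stage (horizontal axis); the line is the median and the open circle is Y-E replicate 6. The Y-P libraries lie between 1.99 and 3.78 for *BCL6* over *PRDM1*, below every library of Y-A and Y-E.

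Blood cell markers were measured in the same libraries. Of 10 neutrophil markers 8 had a row, while *CXCR2* and *FCGR3A* were not matched by name. The summed CPM of 8 neutrophil marker genes had a median of 6210 in Y-A (4580 to 10400), 11400 in Y-E (5930 to 13900) and 4510 in Y-P (3590 to 6950). In Y-P vs. Y-E 5 of the 8 passed as lower and 0 as higher (8 had an unadjusted p under 0.05, DESeq2 passed 7 and limma 6). *CSF3R*, the receptor of granulocyte colony-stimulating factor, made up 41.5% of the sum on average and *S100A12*, a calgranulin, 27.2%. The lowest sum of Y-E was that of Y-E replicate 6, the library with the lowest *BCL6* level of its stage, and the highest sum of Y-A was that of Y-A replicate 5, the library with the highest *BCL6* level of its stage.

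Set against these markers, the *BCL6* levels of the stages overlapped. Its CPM per 1000 CPM of neutrophil markers had a median of 44.7 in Y-A (41.1 to 67.1), 50.2 in Y-E (44.7 to 56.8) and 45.3 in Y-P (28.4 to 51.4). Y-E replicate 6, at 52.8, lay inside the range of its stage. From Y-P to Y-E the median of *BCL6* was 2.92 times higher and that of the marker sum 2.52 times higher. Set against the T cell markers instead, the Y-P libraries had 125 to 296 CPM of *BCL6* per 1000 CPM of markers. This lay below the Y-A range of 310 to 588 and the Y-E range of 437 to 873. Overlap was not particular to neutrophil markers. Against monocyte markers the medians were 450, 837 and 398 in Y-A, Y-E and Y-P, and the ranges overlapped. Against B cell markers the medians were 240, 550 and 137, and the Y-A range of 124 to 580 overlapped both other stages. Y-E and Y-P overlapped only in that Y-E replicate 4, at 224, lay below Y-P replicate 6, at 250. The next lowest Y-E library had 378 and the next highest Y-P library 165. For dendritic cell markers the Y-P range, 2690 to 4267, overlapped that of Y-A, 3159 to 7335. It lay below that of Y-E, 4543 to 10573.

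**Figure D4:**
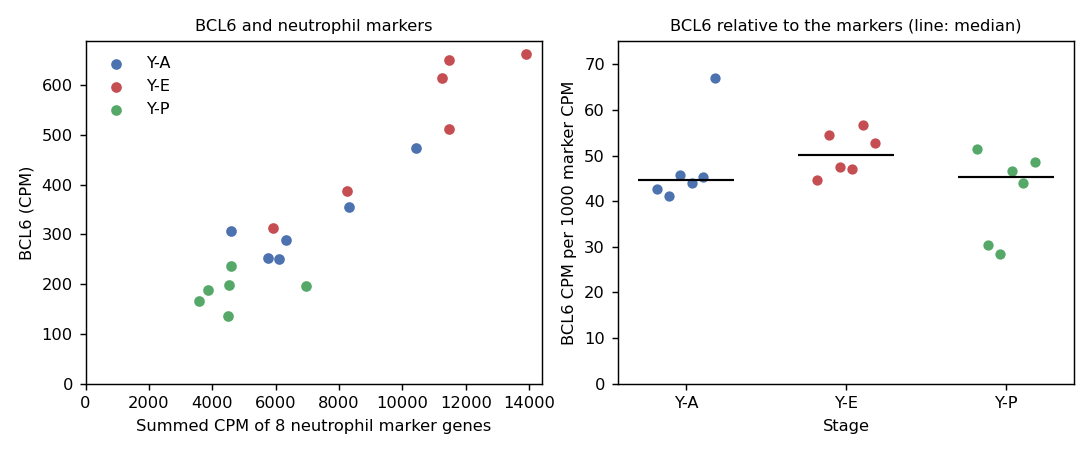
Left, *BCL6* CPM (vertical axis) against the summed CPM of 8 neutrophil marker genes (horizontal axis) in the 18 libraries, coloured by stage; right, *BCL6* CPM per 1000 CPM of these markers by stage, with the median as a line. *BCL6* and the marker sum were both high in Y-E and low in Y-P, and the ratios of the stages overlap, with medians of 44.7, 50.2 and 45.3.

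Markers of the other cell types had other orders of stages. The summed T cell markers (5 genes) had medians of 697, 744 and 1000 CPM in Y-A, Y-E and Y-P, and 2 of the 5 passed as higher in Y-P vs. Y-A (4 by DESeq2 and 4 by limma) and 2 in Y-P vs. Y-E (2 by DESeq2 and 4 by limma). The B cell sum (7 genes) had medians of 1260, 1100 and 1460 CPM, and for the monocyte sum (4 genes) these were 701, 760 and 487 CPM. In neither list did a gene pass in any of the 3 comparisons by edgeR, whereas the unadjusted p was under 0.05 for 1 and 2 B cell genes and for 2 and 1 monocyte genes in the Y-P comparisons with Y-A and Y-E, and DESeq2 passed 1 gene of each list in the latter, where limma passed 2 B cell genes. Of the 4 dendritic cell markers, whose sums had medians of 74.5, 68.3 and 60.2 CPM, 1 passed as lower in Y-P vs. Y-E. The reticulocyte markers (5 genes) fell from a median sum of 1570 CPM in Y-A to 62.6 CPM in Y-P, with all 5 passing as lower in Y-P vs. Y-A (DESeq2 passed 2 and limma 4) and also in Y-P vs. Y-E (DESeq2 passed 2 and limma 1). *ALAS2* made up 93.7% of this sum on average. The Y-E median of the sum was 146 CPM, whereas Y-E replicate 6 had 4660 CPM. NK and cytotoxic cell markers (3 genes) had median sums of 198, 189 and 198 CPM, and platelet markers (3 genes, with *GP1BB* at or below 3 counts) of 313, 317 and 187 CPM.

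*IRF8* was set against the sums in the same way. Its CPM per 1000 CPM of dendritic cell markers had a median of 1335 in Y-P, compared with 823 in Y-A and 833 in Y-E. The Y-P range of 902 to 1921 overlapped that of Y-A, 695 to 996, and that of Y-E, 697 to 1047. On average *TCF4* made up 70.2% of this marker sum and *FLT3* 26.4%. The stage medians of *CLEC9A* and *XCR1* reached only 0.253 and 2.86 CPM, so the sum says little about cells with these 2 markers. Per 1000 CPM of B cell markers, the *IRF8* medians were 51.9, 50.2 and 50.8, and per 1000 CPM of T cell markers 87.0, 74.2 and 83.8. For monocyte markers the medians were 91.9, 75.5 and 166. There the Y-P range of 111 to 191 overlapped those of Y-A, 58.3 to 161, and of Y-E, 56.1 to 176. The second-highest libraries of Y-A and Y-E had 104 and 112. Per 1000 CPM of neutrophil markers, the Y-P libraries had 14.0 to 20.5 and lay above the Y-A range of 5.27 to 12.8 and the Y-E range of 4.09 to 9.01. The part of cell composition in the *IRF8* difference was not tested beyond these ratios.

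The partners, upstream factors and targets of these genes were followed in 8 lists with 100 distinct genes, of which 88 had a row and 85 were tested. The lists were chosen with earlier results of these data known, so no excess over all genes is read from their counts. In Y-P vs. Y-E 3 of the 85 passed as higher (3.53%) and 14 as lower (16.5%), beside 5.77% and 8.68% of all tested genes. Between Y-P and Y-A 2 passed as higher (2.35%) and 4 as lower (4.71%), 6 in all, beside 2.22% and 3.61% of all tested genes, and 10 passed with the replicate number as a block. In Y-E vs. Y-A 0 passed by edgeR, although 7 had an unadjusted p under 0.05, 1 passed by DESeq2 and 0 by limma. The median log2 fold change of the 85 genes in Y-P vs. Y-E was -0.01, compared with 0.04 over all tested genes. The neutrophil marker sum was lower in the same comparison, and its part in these genes was not tested.

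The corepressors that *BCL6* recruits held 6 of the 17 genes that passed in Y-P vs. Y-E. Of 13 tested, 5 fell and 1 rose, while 3 passed by limma, 3 with library totals and 6 by DESeq2. *HDAC5*, a histone deacetylase, fell from 286 ± 62.9 to 182 ± 9.24 CPM (mean ± SD, n = 6 per stage; log2 fold change -0.65 ± 0.13, edgeR adjusted p = 0.00327). *NCOR1*, the scaffold of a deacetylase complex, fell from 477 ± 40.1 to 354 ± 48.6 CPM (-0.43 ± 0.10, edgeR adjusted p = 0.00622), and *HDAC4* from 26.8 ± 4.82 to 15.4 ± 5.68 CPM (-0.81 ± 0.25, edgeR adjusted p = 0.0365). *HDAC3*, the catalytic subunit of the NCOR1 complex, rose from 39.0 ± 2.24 to 50.1 ± 8.04 CPM (0.36 ± 0.10, edgeR adjusted p = 0.0262). The catalytic subunit and its scaffold thus passed in opposite directions.

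Leaving out libraries separated these genes. *HDAC5* and *NCOR1* passed in all 18 fits without a library, and *HDAC3* and *HDAC4* in 12. Those without Y-E replicate 3 or 5 or without Y-P replicate 2, 3 or 5 lost both, and those without Y-E replicate 1 lost *HDAC3* and without Y-E replicate 2 *HDAC4*. With library totals as the only scaling, *NCOR1* had an adjusted p of 0.106 and *HDAC4* of 0.0749, from the same edgeR test. This scaling moved the median of all genes in Y-P vs. Y-E from 0.04 to 0.18. *NCOR1* alone passed in Y-P vs. Y-A, at -0.33 ± 0.10 (edgeR adjusted p = 0.0455). With library totals this value was -0.17 (edgeR adjusted p = 0.389), and among fits with a library left out the gene still passed only in the fits without Y-A replicate 6, Y-E replicate 1, Y-E replicate 6 or Y-P replicate 1.

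The Polycomb complex PRC1.1, which holds BCOR, gave no gene that passed. Of its 7 tested subunits 0 passed in any comparison by edgeR, DESeq2 or limma, and 0 had an unadjusted p under 0.05. In Y-P vs. Y-E the log2 fold changes ran from -0.20 for *KDM2B*, its histone demethylase, to 0.31 for *RING1*, a ubiquitin ligase.

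Among 8 tested BTB zinc finger relatives of *BCL6*, *ZBTB7B*, which directs T cells to the helper lineage, was the only gene that passed. It fell in Y-P vs. Y-E from 158 ± 35.1 to 74.4 ± 9.58 CPM (-1.09 ± 0.18, edgeR adjusted p = 0.000963) and in Y-P vs. Y-A from 116 ± 35.4 CPM (-0.64 ± 0.18, edgeR adjusted p = 0.0418). The first passed in all 18 fits without a library. The second ceased to pass without replicate 1, 2, 3 or 6 of Y-A, without Y-E replicate 5, and without any of replicates 2 to 6 of Y-P. It also did not pass with library totals as the only scaling (edgeR adjusted p = 0.0928) or by limma. In Y-E vs. Y-A its log2 fold change was 0.45 ± 0.18, which did not pass (edgeR adjusted p = 0.618). Its mean levels thus had the same order as those of *BCL6*, Y-E above Y-A and Y-A above Y-P.

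Of 19 tested receptors and factors upstream of *BCL6*, 4 fell and 2 rose in Y-P vs. Y-E. *IL6R*, the interleukin 6 receptor, fell from 433 ± 46.8 to 241 ± 39.6 CPM (-0.85 ± 0.13, edgeR adjusted p = 0.000578). *STAT3*, the factor that carries this signal to *BCL6*, fell from 507 ± 92.6 to 336 ± 59.4 CPM (-0.60 ± 0.15, edgeR adjusted p = 0.0124), and *FOXO3*, a forkhead activator of *BCL6*, from 143 ± 16.0 to 88.6 ± 17.4 CPM (-0.69 ± 0.15, edgeR adjusted p = 0.0064). *IL6R*, *STAT3* and *FOXO3* passed in every fit without a library. *SOCS3*, the other gene that fell, had the lowest log2 fold change of the list, at -1.06 (edgeR adjusted p = 0.0153).

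The genes that rose are in the same upstream list and are also factors of naive T cells. They rose where *BCL6* fell, so the listed upstream genes passed in both directions. *LEF1* rose from 264 ± 27.1 to 382 ± 45.3 CPM (0.53 ± 0.10, edgeR adjusted p = 0.00162) and *TCF7* from 195 ± 30.2 to 269 ± 46.6 CPM (0.46 ± 0.14, edgeR adjusted p = 0.0313). Compared with Y-A they were higher in Y-P by 0.49 and 0.56 on the log2 scale (edgeR adjusted p = 0.00777 and 0.0259), and *IL6R* was lower, at -0.51 (edgeR adjusted p = 0.0278).

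*LEF1* passed in all 18 fits without a library in both comparisons. In Y-P vs. Y-E *TCF7* ceased to pass without replicate 2, 3, 5 or 6 of Y-E and without replicate 2, 4 or 5 of Y-P, and without Y-E replicate 6 its edgeR adjusted p was 0.0627. Against Y-A it ceased to pass without Y-A replicate 5 or 6 or Y-P replicate 2 or 5, and *IL6R* without Y-A replicate 4 or 5, without Y-P replicates 2 to 5 taken singly, and with library totals as the only scaling (edgeR adjusted p = 0.111). Of the T cell markers, 2 of 5 passed as higher in the same comparisons, and their part in *LEF1* and *TCF7* was not tested.

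Few of the genes that BCL6 is known to repress in B cells passed, and no rate is read from so short a list. Of 18 tested targets besides *PRDM1*, 0 passed as higher in Y-P vs. Y-E and 1 as lower, beside 5.77% and 8.68% of all tested genes, whereas 2 had an unadjusted p under 0.05. DESeq2 passed 1 gene and limma passed 2. The log2 fold changes ran from -0.63 to 0.50, with a median of -0.03. The gene that passed, *NFKB1*, which encodes a subunit of NF-kappa B, fell with *BCL6* from 246 ± 21.7 to 159 ± 13.0 CPM (-0.63 ± 0.09, edgeR adjusted p = 0.000443). It was also lower in Y-P vs. Y-A (-0.57 ± 0.09, edgeR adjusted p = 0.00263), and it passed in both comparisons in every fit without a library. *BCL2*, the survival gene at the upper end of the range, had a log2 fold change of 0.50 that did not pass.

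**Figure D5:**
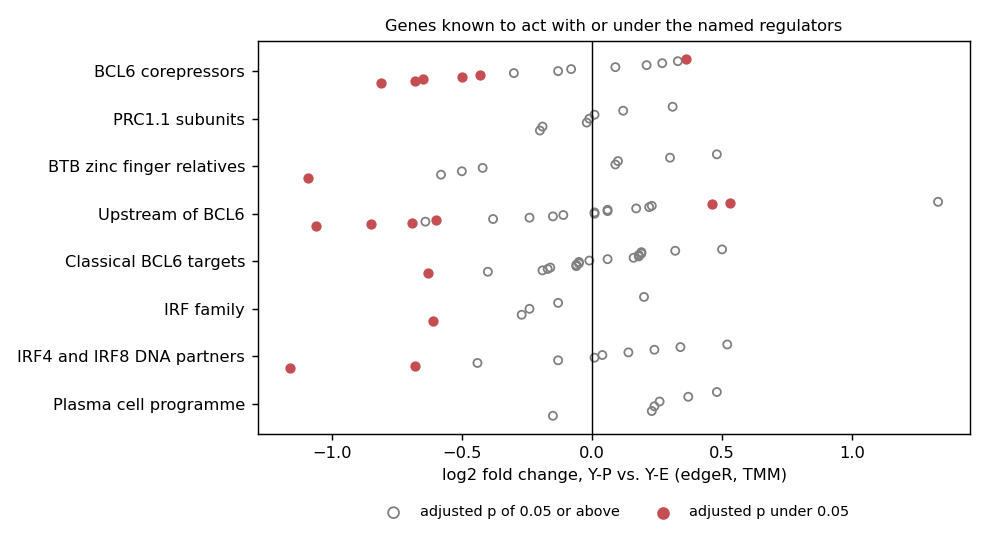
log2 fold change in Y-P vs. Y-E (horizontal axis, from edgeR) of each tested gene of the 8 lists (vertical axis); filled points passed at an adjusted p under 0.05 and open points did not. The filled points lie mostly to the left, as 14 genes passed as lower and 3 as higher, and no PRC1.1 or plasma cell gene is filled.

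The other interferon regulatory factors gave 1 gene that passed. Of 5 tested, *IRF1*, an interferon-induced activator, fell in Y-P vs. Y-E from 849 ± 158 to 557 ± 197 CPM (-0.61 ± 0.19, edgeR adjusted p = 0.0393), and 0 passed as higher. It ceased to pass without Y-A replicate 1, without replicate 1, 2, 3 or 5 of Y-E, without replicate 1, 2, 4, 5 or 6 of Y-P, and with library totals as the only scaling (edgeR adjusted p = 0.0856). Between Y-P and Y-A *IRF5*, which acts downstream of Toll-like receptors, came closest, at -0.38 ± 0.12 (edgeR adjusted p = 0.0565), and it passed in the blocked fit (edgeR adjusted p = 0.0405).

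Of 10 tested proteins that bind DNA together with IRF4 or IRF8, 2 fell in Y-P vs. Y-E. *SPI1*, which encodes the ETS factor PU.1 of myeloid and B cells, fell from 727 ± 239 to 325 ± 27.5 CPM (-1.16 ± 0.19, edgeR adjusted p = 0.0008). *ETV6*, an ETS repressor, fell from 76.3 ± 16.3 to 47.5 ± 4.41 CPM (-0.68 ± 0.13, edgeR adjusted p = 0.00283). Both passed in all 18 fits without a library. *SPI1* and *IRF8*, whose proteins share composite sites on DNA, therefore passed in opposite directions. *IRF8*, however, passed in only 9 of the 18 fits without a library.

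In Y-E vs. Y-A *SPI1* was higher by 0.81 ± 0.18 on the log2 scale without passing (edgeR adjusted p = 0.28). Without Y-E replicate 6 it passed narrowly (edgeR adjusted p = 0.0497). *ETV6* had a Y-P vs. Y-A log2 fold change of -0.42 and an edgeR adjusted p of 0.0687, or 0.0469 in the blocked fit.

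The plasma cell genes listed with *PRDM1* and *IRF4* held few genes that passed under any setting. *JCHAIN* and *SDC1* of this list were not tested, and *TNFRSF17* had a mean of only 0.445 CPM. The list therefore says little about plasma cells themselves. Of 6 tested, 0 passed by edgeR with TMM or by DESeq2, and 1 had an unadjusted p under 0.05 in Y-P vs. Y-A and 0 in the other comparisons. Limma on FPKM passed 1 gene in each of the comparisons with Y-P. The smallest p in Y-P vs. Y-E was that of *XBP1*, the secretory factor of plasma cells, at 110 ± 11.0 CPM in Y-P and 93.5 ± 16.5 CPM in Y-E (0.24 ± 0.12, edgeR adjusted p = 0.194). With library totals as the only scaling *XBP1* passed, at 0.38 (edgeR adjusted p = 0.0336).

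The genes whose log2 CPM was most like that of each regulator over the 18 libraries were listed as a description. Such correlations share libraries, depth, stage and cell composition, and carry no test. For *BCL6* the 4 nearest genes were *SNN* (Pearson's r = 0.962), *PIK3CD* (0.962), *PTK2B* (0.959) and *FGR* (0.958). *FGR* encodes a Src family kinase of myeloid cells, and *PIK3CD* the leukocyte form of a phosphoinositide 3-kinase. After subtracting each stage's mean, the r of these 4 genes still ran from 0.844 to 0.901.

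*PRDM1* was most like *FAP* (r = 0.908), *PTGER4* (0.88), a prostaglandin E2 receptor, and *S1PR2* (0.79), a sphingosine-1-phosphate receptor, followed by *CORO6* (0.71) and *DIRAS3* (0.702). The first 3 had an r of 0.923, 0.897 and 0.772 after subtraction of the stage means, so they varied together among libraries of the same stage. *IRF8* was most like *TRMT1* (0.903), *XPC* (0.892), *MLST8* (0.846), *ACTR1B* (0.845) and *TMEM35B* (0.842). The nearest genes of *IRF4* were *SLC12A5* (0.757), *UHRF1BP1* (0.752), *BICD2* (0.75), *CAMSAP1* (0.742) and *ZBTB12* (0.726). None of the nearest genes of any regulator was another of the 4.

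Within a stage *BCL6* was compared with each of the other 3 genes over 6 libraries, giving 9 relations. On log2(CPM + 0.5), 0 of the 9 passed an exact permutation test after Benjamini-Hochberg adjustment, the smallest p being that of *BCL6* and *IRF4* in Y-A. There Pearson's r was -0.844 (exact permutation p = 0.0556, adjusted 0.468) and Spearman's rho was -0.60 (exact permutation p = 0.242). In Y-A replicate 5 *BCL6* was highest and *IRF4* lowest. Without the 2 libraries farthest from the *BCL6* median r was -0.126, so in CPM the relation rested on those libraries. On log2(FPKM + 1) this relation passed, with an r of -0.978 (exact permutation p = 0.00139, adjusted 0.0125). Whether it rested on those libraries in FPKM too was not tested. *BCL6* and *PRDM1* had an r of 0.652, 0.562 and -0.0978 in Y-A, Y-E and Y-P (exact permutation p = 0.154, 0.20 and 0.829, and 0.468, 0.468 and 0.829 after adjustment). Spearman's rho was 0.60, 0.657 and -0.20 (exact permutation p = 0.242, 0.175 and 0.714). *BCL6* and *IRF8* had an r between -0.312 and -0.176 in the 3 stages (exact permutation p from 0.569 to 0.774). An inverse relation of these 2 genes within a stage was not detectable with 6 libraries.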

How the data were processed

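The deposited table gives, for each gene and library, FPKM values and counts that the authors made. Per the submitters' processing notes, reads were trimmed with Cutadapt 1.9, aligned with HISAT2 2.2.1 and assembled with StringTie 2.1.6, and these notes also name DESeq2 and edgeR. How the authors made the count columns is not given in the sources used here. The members and lists were chosen with earlier results of these data known. Libraries were assigned to stages by their titles. Counts were tested with edgeR 4.0.16 in R 4.3.3 (TMM, filterByExpr, quasi-likelihood test, two-sided, stage as the only factor over 18 libraries), with p-values adjusted by the Benjamini-Hochberg method over the 14508 genes kept. The script was tested on simulated data. Alternatives used DESeq2 1.42.0, limma 3.58.1 on log2(FPKM + 1) and log2(FPKM + 0.1), library totals, no filter, only 2 stages, a replicate block, and each library left out.

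The study selected 6 cows and says that samples were tracked through the stages, but not that equal replicate numbers mark a cow. The main fit, with stage as its only factor, did not account for repeated sampling of a cow. Deviations from the stage means of libraries with the same number correlated with an r of 0.112 to 0.653 in Y-E vs. Y-A, but from -0.0715 to 0.484 in Y-P vs. Y-A and from -0.0819 to 0.492 in Y-P vs. Y-E. Of the 6 Y-E libraries, 5 correlated best with the Y-A library of their own number. For the Y-P libraries this held for 3 against Y-A and 3 against Y-E. Where libraries are not separate animals, p-values measure only the spread between these libraries. No count columns were identical. From each list and comparison, at most 3 higher and 3 lower genes that passed were named, by smallest adjusted p, or else the gene with the smallest p. For likeness, the genes with the highest Pearson r over the 18 libraries were named, up to 5 per regulator, and 1 of those for *BCL6* is not reported here. *RING1*, *BCL2*, *SOCS3* and *TNFRSF17*, which mark the end of a range, were named after their values were seen. No list was put to a set test, and no sequence is shown.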

Additional observations from a re-analysis of the deposited data

Results flagged for a closer look

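Of 12 sets of 6 libraries (4 genes in 3 stages), *IRF4* in Y-A had a library far from the others. Y-A replicate 5 had 30.8 CPM of *IRF4*, the next lowest Y-A library had 39.2 CPM, and the gap took 0.704 of the range of the stage on the log2 scale. Chance alone flags about 1 in 20 such sets.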

How the results depend on the processing

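The log2 fold changes of the 4 genes were recomputed under 26 alternatives for each of 3 comparisons, and all 312 values moved by less than the SD between replicates. *BCL6* was lower in Y-P vs. Y-E and in Y-P vs. Y-A in all 26. The numbers of genes called depended on the setting. In Y-E vs. Y-A 2 genes were called, compared with 12 by DESeq2, 11 with the replicate block, 34 with the replicate block and without Y-E replicate 6, and 2 to 18 when a library was left out, the highest being without Y-E replicate 6 and 4 being called without Y-A replicate 1. In Y-P vs. Y-A 208 were called, compared with 128 and 343 by limma on log2(FPKM + 1) and log2(FPKM + 0.1), and 110 to 229 when a library was left out, with 110, 134 and 136 without Y-P replicate 2, 4 or 5. In Y-P vs. Y-E 387 were called, compared with 143 by limma on log2(FPKM + 1).

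Of the list genes, 0 passed in Y-E vs. Y-A, compared with 1 by DESeq2, 1 with the replicate block and without Y-E replicate 6, and 0 to 1 when a library was left out. In Y-P vs. Y-A 6 passed, compared with 10 by DESeq2, 10 with the replicate block, 2 when only the 2 stages were fitted, and 2 to 7 when a library was left out, with 2 or 3 without Y-A replicate 5 or Y-P replicate 2, 4 or 5. In Y-P vs. Y-E 17 passed, and 11 to 20 did when a library was left out, with 11 without Y-E replicate 3 or 5. The block moved no other count by more than 1.5 times. On log2(FPKM + 1), 1 of the 9 relations within a stage passed, *BCL6* and *IRF4* in Y-A (r = -0.978, exact permutation p = 0.00139, the smallest that 6 libraries can give, adjusted 0.0125). The causes of these shifts were not tested.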
